A study of Mus musculus with 2 samples.

Results

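The cytosolic ribosomal protein genes were described here as a group in mouse liver leukocytes. Members were all genes whose symbol has the form of an Rpl or Rps gene with a number (an a, x or l may follow), the stalk genes Rplp0, Rplp1 and Rplp2, and Rpsa, with at least 1000 unique molecular identifiers (UMIs, tags that mark single captured transcripts) over all barcodes of both libraries. Of the 28692 genes of the files, 81 had such a symbol and 79 reached the minimum, 31 of the small and 48 of the large ribosomal subunit. Members were thus chosen by their symbols and by their summed UMI level, so that they are abundant is a description and no finding. They included 76 of 80 canonical cytosolic ribosomal proteins and 3 paralogs, Rpl6l, Rps27l and Rpl39l. Rpl6l is annotated as a processed pseudogene and was counted with the large subunit by its symbol. Canonical genes with symbols of another form, among them Fau, Rps3a1 and Gnb2l1 (whose product is Rack1), were followed apart.

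A ribosome is built from ribosomal RNA and 1 copy of most of these proteins, so that the proteins are needed in near equal amounts. The mRNAs begin with a run of pyrimidines, the 5′ terminal oligopyrimidine (TOP) tract, through which growth signals such as mTOR set how strongly they are translated. In lymphocytes, quiescent naive cells and activated cells differ in how much of their RNA and protein goes into ribosomes.

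CD45+ hepatic leukocytes were sorted from the livers of 6-week-old female mice given vehicle or oral antibiotics for 1 week, and 1 Chromium 3′ version 2 library was sequenced per condition. The antibiotic water held ampicillin and metronidazole at 1 mg/mL each and neomycin and vancomycin at 0.5 mg/mL each. The study's methods name C57BL/6 mice beside other strains, and do not say for these libraries which strain was used or how many mice were pooled. As each condition is 1 library, the conditions could not be tested against each other, and differences between mice, captures or library preparation cannot be told apart from the treatment. Ranges after a value are exact 95% intervals that cover counting error only.

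Cells were barcodes with 1500 or more UMIs and under 10% mitochondrial UMIs, 9002 in the vehicle library (median 3515 UMIs) and 7050 in the antibiotic library (median 3331). They were placed, in this order, into B cells (2 or more Cd79a UMIs, no Cd3e), plasmacytoid dendritic cells (pDC; 2 or more Siglech), NK cells (1 or more Ncr1, no Cd3d, Cd3e or Cd3g), NKT-like cells (1 or more Trac and Cxcr6 each) and other T cells (2 or more Trac, no Cxcr6). Against marker lists, all 7 B cell, all 7 pDC and all 7 NK cell markers were highest in their own class, as were 7 of 8 NKT-like markers. Of 9 markers of other T cells 4 were, and the Cd3 genes were highest in NKT-like cells, so this class is used by its rule. The Cd3 genes are also on the NKT-like list. Their absence was required by rule in NK cells and, for Cd3e, in B cells, so that part of the check was set in advance. The libraries shared 93 cell barcodes, 1.03% of the vehicle and 1.32% of the antibiotic cells.

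The start sites of 10 members whose values are given below are shown because the TOP tract is the feature that these mRNAs are known to share. Each run holds 15 bases before and 15 bases from the annotated RefSeq start (GRCm38.p6), which is base 16, and so covers the end of the promoter and the beginning of the first exon. Capitals mark the tract nearest the start, a C followed by 4 or more bases that are each C or T.
Rps27 (chr3:90213634-90213663, minus strand): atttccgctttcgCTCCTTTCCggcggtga
Rpl14 (chr9:120571502-120571531, plus strand): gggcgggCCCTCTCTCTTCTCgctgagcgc
Rpl15 (chr14:18270972-18271001, minus strand): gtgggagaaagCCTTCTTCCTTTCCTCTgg
Rplp2 (chr7:141447636-141447665, plus strand): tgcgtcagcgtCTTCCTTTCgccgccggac
Rpl28 (chr7:4792950-4792979, plus strand): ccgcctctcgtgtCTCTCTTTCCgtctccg
Rps21 (chr2:180257364-180257393, plus strand): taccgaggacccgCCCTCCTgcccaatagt
Rpl12 (chr2:32961697-32961726, plus strand): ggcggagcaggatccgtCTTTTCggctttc
Rpl13a (chr7:45128731-45128760, minus strand): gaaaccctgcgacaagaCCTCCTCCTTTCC
Rpl10 (chrX:74270801-74270830, plus strand): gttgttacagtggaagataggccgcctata
Rpl41 (chr10:128549154-128549183, minus strand): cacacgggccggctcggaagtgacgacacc

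In the first 6 the tract crossed the annotated start, in Rpl12 and Rpl13a it began 2 bases after it, and in the windows of Rpl10 and Rpl41 these letters were not found. Start sites were not measured here, so a window without these letters does not show that an mRNA lacks the tract. In GENCODE the 5′ side of the Rpl41 gene is at 128549305, outside the window shown. The counts and the split below are therefore by RefSeq annotation only. Of the 79 members, 58 were in the RefSeq table. A tract read from the start itself on the transcribed strand was present in 13 of them (22.4%), against 3.01% of the 27025 genes of the table, and a tract anywhere in the 30 bases in 39 (67.2%) against 40.3%. Medians of the ratio between the libraries were close in members with and without the tract at the annotated start. In NKT-like cells the log2 of the antibiotic to vehicle ratio had a median of 0.28 over the 13 and 0.23 over 44 others, and in B cells of 0.01 and −0.02.

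Levels are given as counts per 1000000 UMIs of a class in a library (CPM). Because the 3′ kit captures 1 end of each transcript, CPM compares genes per transcript and was not divided by length. Within NKT-like cells of the vehicle library the median member had 3806 CPM. Rps27, Rpl13a, Rps29 and Rpl13 were among the 5 most abundant members. Rps27 (ENSMUSG00000090733), a small-subunit protein with a zinc finger, had 12968 CPM in vehicle and 13738 CPM in antibiotic B cells, the highest level of any member in any class. Rpl13a, a large-subunit protein also known for a role outside the ribosome in the interferon response, had 9129 and 11232 CPM in NKT-like cells.

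The only member close above the minimum was Rpl39l (1078 UMIs). The next lowest, Rps27l (14651) and Rpl6l (29276), lay far above it, and all 3 are paralogs of canonical members. Below the minimum were Rpl10l (382 UMIs) and Rpl3l (28). Rpl39l is a paralog of Rpl39 best known from testis. Of its UMIs only 10.1% lay in called cells, at 1.94 CPM in the vehicle and 1.57 CPM in the antibiotic library. Most of the rest lay in barcodes of at most 100 UMIs. Barcodes with fewer than 10 UMIs had 351 and 490 CPM of Rpl39l, barcodes with 10 to 100 UMIs 58.9 and 69.8 CPM, and barcodes with 1500 or more UMIs 1.94 and 1.57 CPM. Rpl39 itself was spread the other way, with 2704 and 2720 CPM under 10 UMIs and 4618 and 4957 CPM at 1500 or more. Rpl39l therefore had few UMIs in any class, at most 39 in vehicle NKT-like cells, and 78 members had 1000 or more UMIs in called cells.

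Ribosomal protein genes took up a larger share of all UMIs in antibiotic than in vehicle cells in pDC, NK cells and NKT-like cells, and nearly the same share in B cells. In NKT-like cells the share was 31.8% (31.79 to 31.84) of 16764501 UMIs in the vehicle and 37.95% (37.93 to 37.97) of 16713385 UMIs in the antibiotic library, a ratio of 1.19 (1.191 to 1.194). NK cells had shares of 22.2% and 26.7%, a ratio of 1.203 (1.193 to 1.214). In pDC, the producers of type I interferon, the shares were 22.5% and 26.6%, a ratio of 1.18 (1.17 to 1.19), with only 34 antibiotic cells against 174 vehicle cells. Other T cells had the highest shares of the 5 classes, 38.4% and 40.2%, a ratio of 1.05 (1.045 to 1.05). For B cells the shares were 32.2% (32.14 to 32.20) and 32.1% (32.10 to 32.20), a ratio of 0.999 (0.997 to 1.00). Cells that met none of the 5 rules had 27.9% in the vehicle and 35.35% in the antibiotic library.

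**Figure D1:**
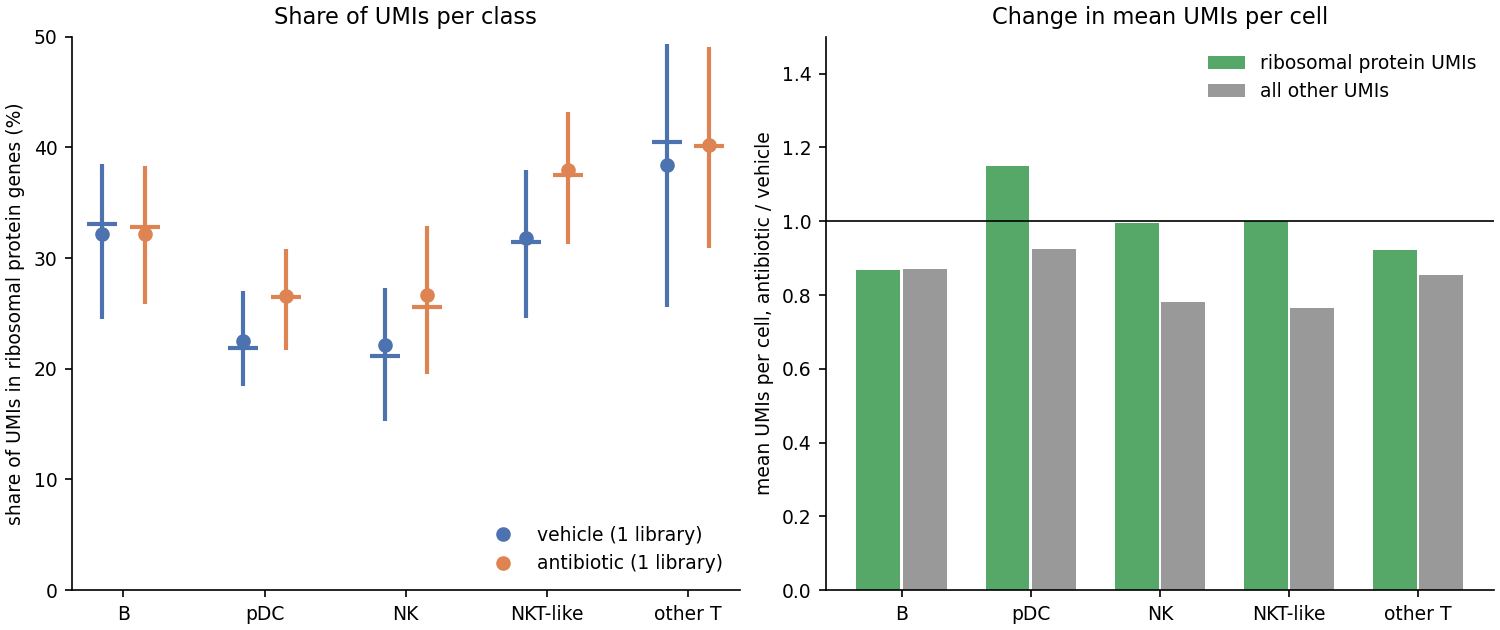
Left, the share of UMIs from ribosomal protein genes in % (vertical axis) for 5 leukocyte classes in the vehicle (blue) and antibiotic (orange) library; dots are the share of the summed UMIs, horizontal ticks the median cell, and vertical bars the 10th to 90th percentile of cells. Right, the ratio of antibiotic over vehicle mean UMIs per cell for ribosomal protein genes (green) and all other genes (gray); in NKT-like cells these were 1.00 and 0.764, and in B cells 0.868 and 0.870.

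In NKT-like and NK cells the 10th percentile, the median and the 90th percentile of cells were all higher in the antibiotic library. In NKT-like cells the median cell had a share of 31.5% in the vehicle and 37.5% in the antibiotic library. The 10th to 90th percentiles of cells were 24.6% to 37.9% and 31.3% to 43.2%, so that the median antibiotic cell lay near the 90th percentile of vehicle cells. For NK cells the medians were 21.1% and 25.6%, with percentiles of 15.3% to 27.3% and 19.6% to 32.9%. The difference was not even over parts of the NK class, as given below by Eomes and Cxcr6. Other T cells had medians of 40.5% and 40.2%, with percentiles of 25.6% to 49.3% and 30.9% to 49.0%. The 10th percentile of other T cells was thus higher in the antibiotic library, while the median and the 90th percentile were close. The mix of other T cells also differed between the libraries, as given below by Ccr7 and Ccl5. B cells overlapped throughout, with medians of 33.0% and 32.8%.

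A share can be higher because ribosomal protein UMIs are more numerous or because other UMIs are fewer. Per NKT-like cell, the mean number of ribosomal protein UMIs was 1518 in vehicle and 1519 in antibiotic cells, a ratio of 1.00, whereas all other UMIs were 3253 and 2484, a ratio of 0.764. In NK cells ribosomal protein UMIs were 694 and 692 per cell, and all other UMIs 2435 and 1899, a ratio of 0.780. pDC differed in that ribosomal protein UMIs were more numerous in antibiotic cells, 1456 and 1675 per cell, with other UMIs of 5004 and 4629. B cells had fewer of both in the antibiotic library, 932 and 809 ribosomal protein UMIs and 1965 and 1708 others, ratios of 0.868 and 0.870. Other T cells had 1669 and 1537 ribosomal protein UMIs and 2681 and 2288 others, ratios of 0.921 and 0.853. UMIs per cell also depend on how deeply each library was captured and sequenced, which these counts do not separate from the RNA content of a cell.

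NKT-like and other T cells of like depth showed the difference too, other T cells least at 4000 to 6000 UMIs. By bins of 20 or more cells, NK cells could be compared at 2000 to 3000 UMIs only. Among NKT-like cells with 2000 to 3000 UMIs the shares were 27.0% (216 vehicle cells) and 33.7% (770 antibiotic cells), and with 6000 or more UMIs 32.05% and 39.4%. In both libraries the share of NKT-like cells was lowest at 1500 to 2000 UMIs (23.0% and 32.3%) and highest at 4000 to 6000 UMIs (33.1% and 39.9%). For B cells the order of the libraries changed with depth. The shares were 29.3% (233 vehicle cells) and 31.6% (475 antibiotic cells) at 1500 to 2000 UMIs, 32.5% and 32.6% at 2000 to 3000, 33.2% and 34.2% at 3000 to 4000, 32.8% and 34.8% at 4000 to 6000, and 29.1% (97 cells) and 26.2% (28 cells) at 6000 or more. NK cells with 2000 to 3000 UMIs had 20.2% (113 cells) and 26.3% (65 cells). Other T cells had 35.1% and 37.1% at 2000 to 3000 UMIs and 39.3% and 41.7% at 3000 to 4000. The libraries were closer at 4000 to 6000 UMIs, 41.8% and 42.3%, and other T cells of 6000 or more had 34.8% and 37.1%.

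**Figure D2:**
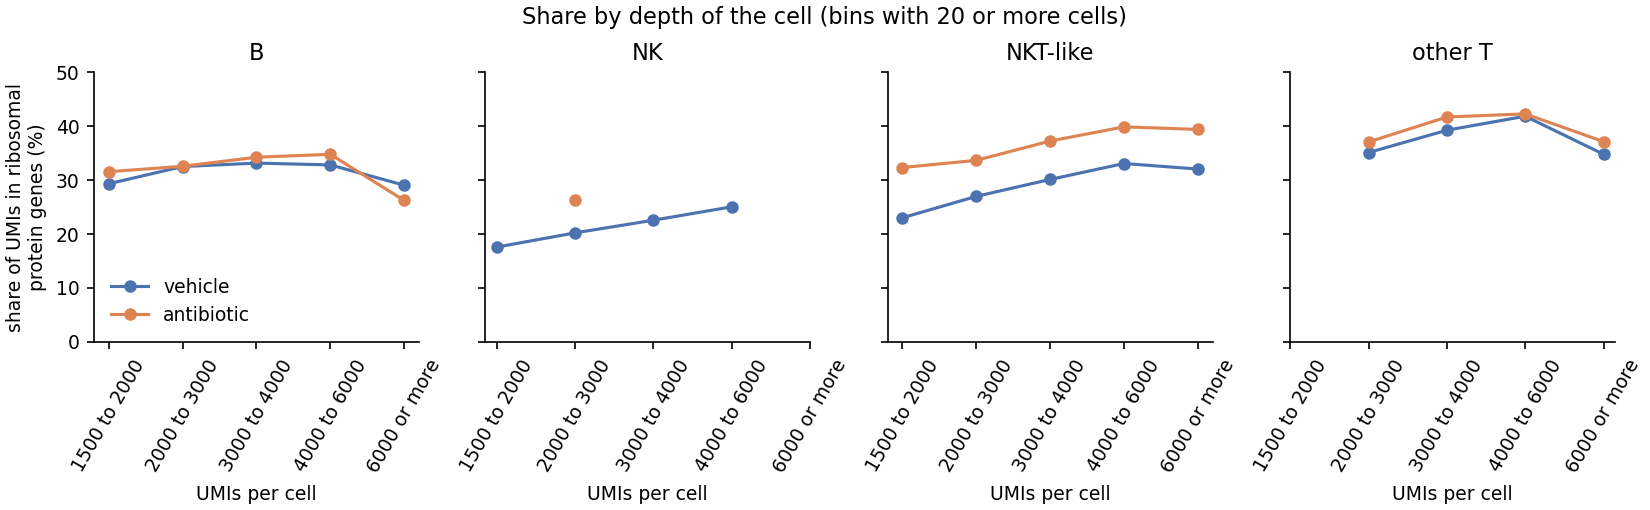
Share of UMIs from ribosomal protein genes in % (vertical axis) by the depth of the cell in UMIs (horizontal axis) for B, NK, NKT-like and other T cells in the vehicle (blue) and antibiotic (orange) library, for bins with at least 20 cells. In NKT-like cells the antibiotic line lies above the vehicle line in all 5 bins, from 23.0% and 32.3% at 1500 to 2000 UMIs to 32.05% and 39.4% at 6000 or more.

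Gene by gene, most members had higher CPM in the antibiotic library in the same 3 classes. A member was counted in a class where it had 50 or more UMIs there in both libraries together, and all genes with 1000 or more UMIs were counted in the same way. In NKT-like cells 75 of 79 members were higher at any fold and 4 lower, where 43.5% of all genes were higher and 56.5% lower, and 34 were higher by 1.2-fold or more, where 11.3% of all genes were. In NK cells 74 of 78 members were higher, against 47% of all genes, and 39 by 1.2-fold or more, against 25.3%. In pDC 74 of 78 were higher, against 46.8%, and 30 by 1.2-fold or more, against 23.2%. None was lower by 1.2-fold or more in pDC, where 29.7% of all genes were. B cells had 39 members higher and 39 lower, against 58.4% and 41.6% of all genes, and 1 higher by 1.2-fold or more, against 20.5%. With both libraries scaled to a median ratio of 1 over all genes, 19 were higher and 59 lower in B cells. Other T cells had 53 members higher and 25 lower, against 53.7% and 46.3% of all genes, and 2 by 1.2-fold or more, against 23%. Scaled to the UMIs outside members and mitochondrial genes, 67 were higher and 11 lower in other T cells.

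Median log2 ratios of the members were 0.26 in NKT-like cells, 0.26 in NK cells, 0.22 in pDC, 0.07 in other T cells and 0.00 in B cells, and over all genes counted they were −0.04, −0.03, −0.04, 0.03 and 0.05. Many genes in the background had few UMIs and wide counting error, above all in pDC and NK cells. Among genes with 1000 or more UMIs of the class that are no members, 8.6% of 3605 were higher by 1.2-fold or more in NKT-like cells, 12.5% of 80 in NK cells, 9.24% of 119 in pDC, 12.4% of 1351 in B cells and 11.7% of 562 in other T cells. Median log2 ratios of small- and large-subunit genes were 0.25 and 0.26 in NKT-like cells, 0.25 and 0.28 in NK cells, 0.21 and 0.24 in pDC, 0.05 and 0.09 in other T cells and −0.02 and 0.01 in B cells, so that the large subunit was slightly above the small one in each. In NK cells 13 of 31 small- and 26 of 47 large-subunit genes were higher by 1.2-fold or more. The small subunit held 43.5% and 43.9% of member UMIs in vehicle and antibiotic NKT-like cells and 45.0% and 45.3% in B cells.

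**Figure D3:**
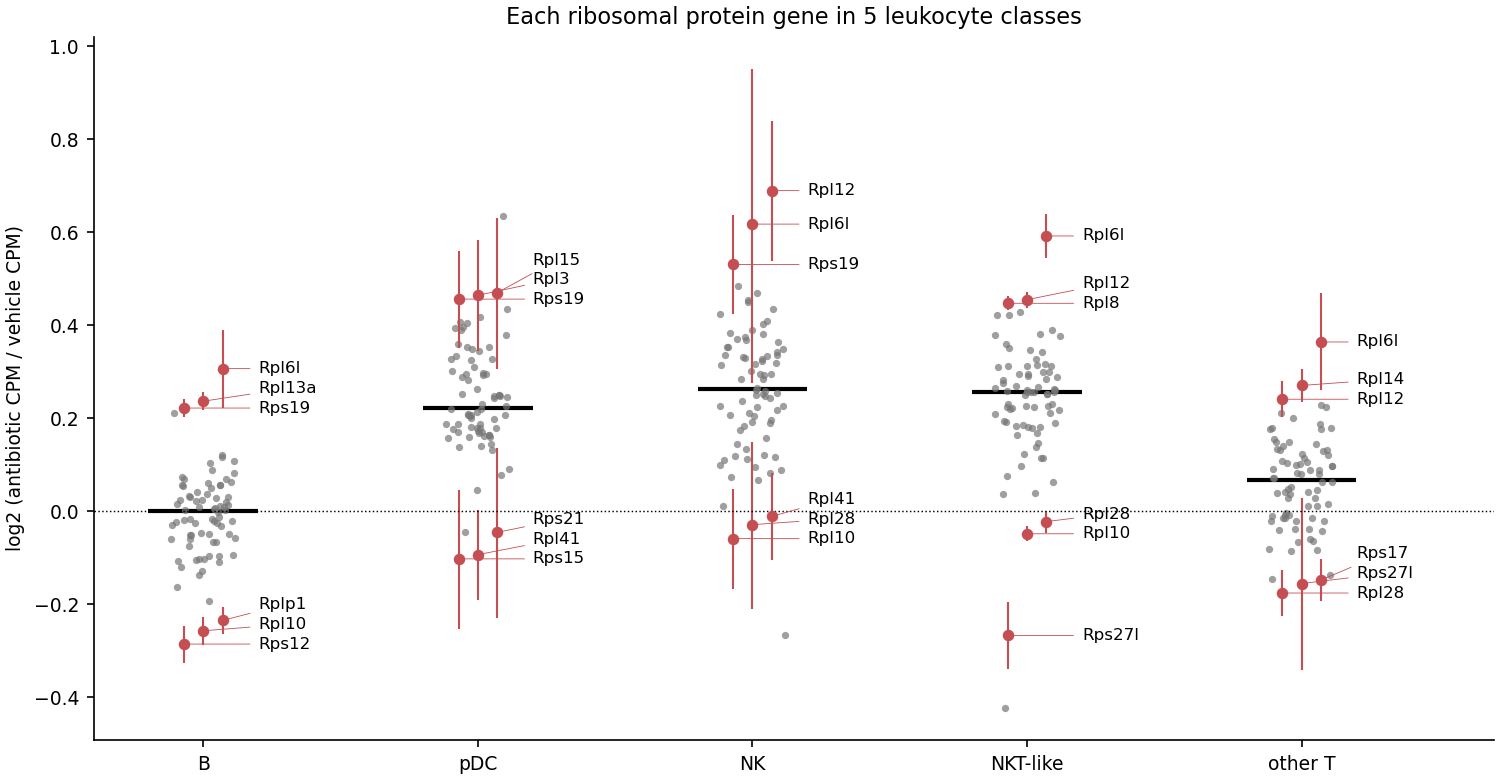
Log2 ratio of antibiotic over vehicle CPM (vertical axis) of each ribosomal protein gene with 50 or more UMIs in B cells, pDC, NK cells, NKT-like cells and other T cells; gray dots are single genes, black lines the class medians, and red points the 3 highest and 3 lowest genes with 100 or more UMIs per library, with 95% counting intervals. Medians are 0.00 in B cells and 0.26 in NKT-like cells, and Rpl6l is among the labelled high genes in B, NK, NKT-like and other T cells.

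Among genes with 100 or more UMIs per library, Rps19 was the only small-subunit gene among the 3 highest ratios of any class. Rpl6l, the processed pseudogene paired here with Rpl6, had 372 and 560 CPM in vehicle and antibiotic NKT-like cells, a ratio of 1.51 (1.46 to 1.56). Its ratio was 1.53 (1.21 to 1.93) in NK cells, 1.55 (1.21 to 1.98) in pDC, 1.29 (1.197 to 1.38) in other T cells and 1.24 (1.17 to 1.31) in B cells. Rpl6 itself had ratios of 1.201 in NKT-like cells and 1.002 in B cells. The last 300 bases of the GENCODE Rpl6l transcript are 100% identical to a stretch of Rpl6, so that the split of UMIs between these genes is uncertain.

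Rpl12, which sits at the base of the stalk that recruits elongation factors, had 1342 and 2164 CPM in vehicle and antibiotic NK cells, a ratio of 1.61 (1.45 to 1.79). In NKT-like cells it had 2852 and 3910 CPM, a ratio of 1.37 (1.35 to 1.39), and in B cells 2277 and 2369 CPM, a ratio of 1.04 (1.01 to 1.07). Rps19, needed to mature the RNA of the small subunit and the gene most often mutated in Diamond-Blackfan anemia, was at 6009 and 8057 CPM in NKT-like cells, a ratio of 1.34 (1.33 to 1.35), and at 7915 and 9233 CPM in B cells, a ratio of 1.17 (1.15 to 1.18). Rpl8, a protein near the catalytic center, was at 3577 and 4877 CPM in NKT-like cells, a ratio of 1.36 (1.35 to 1.38). Rpl14 had a ratio of 1.21 (1.18 to 1.24) in other T cells, with 4011 and 4839 CPM, and Rpl3, near the catalytic center as well, one of 1.38 (1.27 to 1.498) in pDC. Rpl13a was at 7885 and 9293 CPM in B cells, a ratio of 1.18 (1.16 to 1.19), in a class where the members' median log2 ratio was 0.00.

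A smaller set of members had ratios near or below 1, also in the classes where most were higher. Rpl10, which joins the large subunit in the last steps of its assembly, had 3862 and 3735 CPM in NKT-like cells, a ratio of 0.967 (0.957 to 0.978), and 4041 and 3382 CPM in B cells, a ratio of 0.837 (0.819 to 0.855). Rpl28 had ratios of 0.985 (0.969 to 1.00) in NKT-like cells and 0.886 (0.856 to 0.916) in other T cells. Rpl41, the shortest ribosomal protein, was at 5150 and 4829 CPM in pDC, a ratio of 0.938 (0.877 to 1.00), and at 6359 and 5564 CPM in B cells, a ratio of 0.875 (0.861 to 0.890). Rps12 had the lowest ratio in B cells, 0.821 (0.798 to 0.844), with 2430 and 1994 CPM, and in NKT-like cells its ratio was 1.10. Rps15 and Rps21 were below 1 in pDC, at 0.932 (0.840 to 1.03) and 0.969 (0.853 to 1.10), intervals that include 1.

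Rps27l, the paralog of Rps27 that is a target of p53, was lower in the antibiotic library in NKT-like cells, at 203 and 169 CPM, a ratio of 0.831 (0.791 to 0.874), while Rps27 was at 10006 and 13477 CPM, a ratio of 1.35 (1.34 to 1.36). In B cells Rps27l had 143 and 138 CPM (0.968, 0.869 to 1.08), and in NK cells 291 and 242 CPM (0.831, 0.618 to 1.10), intervals that include 1. Rpl39l in NKT-like cells rested on 39 and 29 UMIs, a ratio of 0.746 (0.445 to 1.24).

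The stalk proteins, which contact the translation factors, did not have a common ratio. In NKT-like cells Rplp0 had a ratio of 1.12 (1.11 to 1.13), Rplp1 one of 1.026 (1.016 to 1.035) and Rplp2 one of 1.19 (1.18 to 1.202). In B cells Rplp1 was at 4374 and 3718 CPM, a ratio of 0.850 (0.833 to 0.867), with 0.959 for Rplp0 and 0.966 for Rplp2.

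Relative to the summed members, so that a change of the whole group cancels, few members stood apart by 1.2-fold or more. Dividing by the member total also shifts all other genes by the difference in member share. The background shares given here therefore do not show whether members stayed together. In NKT-like cells only Rpl6l was higher by that much, where 2.78% of all genes were, and 4 (Rpl10, Rpl28, Rps27l and Rpl39l) were lower, where 55.2% of all genes were. NK cells had 3 higher (Rpl12, Rps19 and Rpl6l), where 9.26% of all genes were, and 4 lower (Rpl10, Rpl28, Rpl41 and Rps27l), where 53.2% were. In pDC Rpl6l was higher (background 9.76%), and Rps21, Rps15, Rpl41 and Rps27l were lower (background 51.1%). In B cells Rpl6l was higher (background 20.7%) and Rps12 lower (background 11.9%), and in other T cells Rpl6l was higher (background 17.7%) and none lower (background 23.8%). The 5 classes came from the same 2 libraries, so that their values are not separate measurements of the treatment.

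Between classes, other T cells had the highest CPM of 70 of the 78 members counted in all 5 classes, by the mean of both libraries, where 8.28% of the 2404 genes counted were highest in other T cells. The lowest class was pDC for 44 members (22.5% of all genes) and NK cells for 33 (8.28% of all genes). The highest class stood above the lowest by 1.31-fold to 3.93-fold, with a median of 1.73-fold. Rpl31, a protein at the exit of the peptide tunnel, had the widest range and was highest in pDC, with 5638 CPM in pDC and 1434 CPM in NK cells. It was at 5309 and 5968 CPM in vehicle and antibiotic pDC, above both libraries of every other class. Rpl10 was also highest in pDC, with 6204 CPM against 3646 CPM in NK cells, as was Rps27l, with 360 CPM against 141 CPM in B cells. Rpl12 ranged from 1271 CPM in pDC to 3810 CPM in other T cells, and Rpsa, also known as a laminin receptor, from 1736 to 3865 CPM. Rps19 was near its highest in B cells (8574 CPM) and other T cells (8929 CPM) and lowest in NK cells (3500 CPM). Rplp0 stood at 7195 CPM in other T cells, above 5163 CPM in NKT-like cells and 3208 CPM in NK cells. Rps27 and Rps25 were highest in B cells, and Rpl38, Rpl27 and Rps9 in NKT-like cells.

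**Figure D4:**
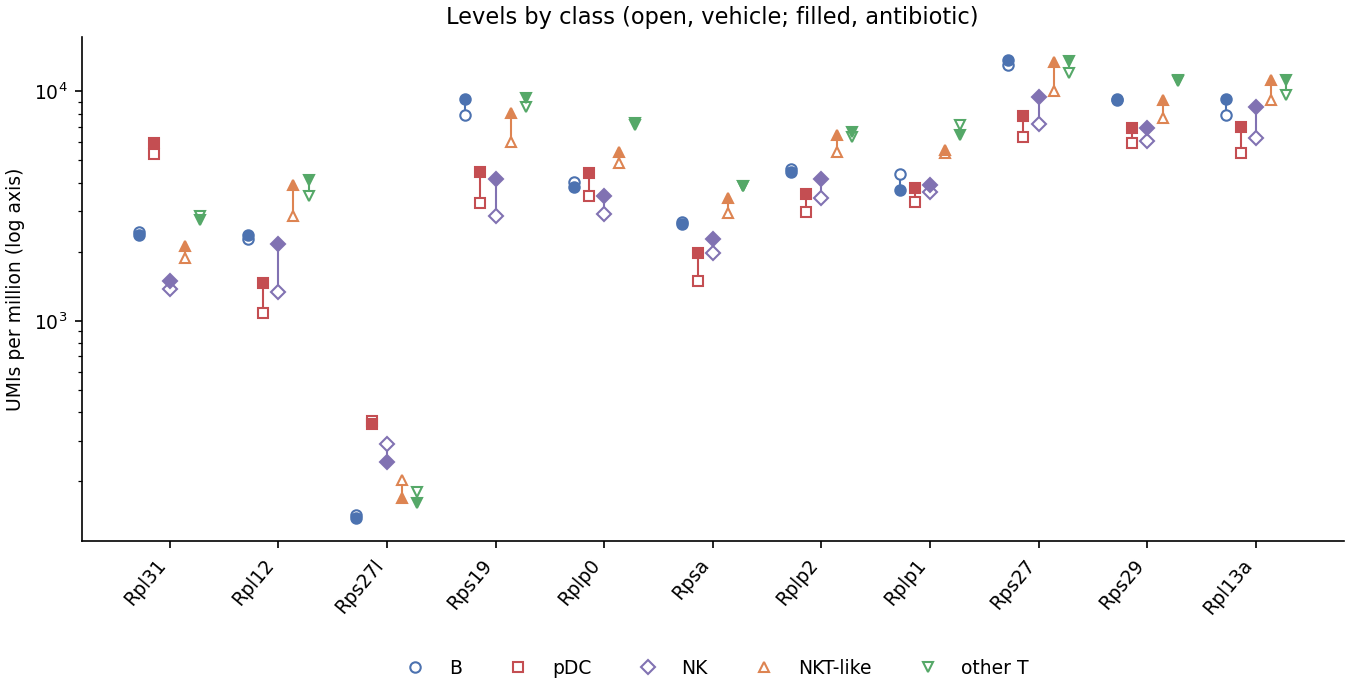
Level in CPM (vertical log axis) of 11 ribosomal protein genes (horizontal axis) in B cells, pDC, NK cells, NKT-like cells and other T cells; open symbols are the vehicle and filled symbols the antibiotic library, joined by a line. Rpl31 in pDC (5309 and 5968 CPM) lies above all other classes, and Rps27l in B cells (143 and 138 CPM) below them.

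Within classes the share followed some marker genes. Among other T cells, those with Ccr7, the lymph node homing receptor of naive T cells, and no Ccl5 UMI had the highest shares, 42.1% (184 vehicle cells) and 44.4% (110 antibiotic cells). Those with Ccl5 and no Ccr7 UMI had 32.9% (298 cells) and 37.8% (346 cells). Both parts thus had higher shares in the antibiotic library. The part with Ccl5 was 298 of 786 vehicle and 346 of 650 antibiotic other T cells, so that the mix differed. How far this mix shaped the values of the other T class was not tested. NK cells with Eomes had 22.8% (80 cells) and 25.1% (23 cells), and those with Cxcr6 and no Eomes UMI had 22.0% (58 cells) and 30.4% (35 cells). The libraries thus differed more in the latter, which were 58 of 256 vehicle and 35 of 99 antibiotic NK cells. How far this mix shaped the values of the NK class was not tested. NKT-like cells with a Cd4 UMI had 31.7% and 38.0%, and those without one 31.9% and 37.9%. NKT-like cells with 2 or more UMIs of the activation genes Nr4a1, Tnfrsf9 and Icam1 had 31.2% and 37.3%, against 32.0% and 38.1% of those with none. B cells with Fcer2a, the low-affinity IgE receptor of follicular cells, had 32.8% and 32.5%, against 31.3% and 31.9% without it. Cells were split by a UMI of the gene, which deeper cells have more often.

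Ribosomal protein genes with other kinds of symbol had median ratios near those of the members. In a list of 8 such genes, which held canonical ones and 4 paralogs or copies (Rpl22l1, Rpl36al, Rps27rt and Rpl7l1), 7 were higher in antibiotic NKT-like cells, all 8 in pDC, 7 in NK cells, 7 in other T cells and 6 in B cells. Of all genes counted, 43.5%, 46.8%, 47%, 53.7% and 58.4% were higher in these classes, in the same order. The median log2 ratios of the 8 genes were 0.25, 0.29, 0.32, 0.12 and 0.09. Fau, a ubiquitin-like protein joined to a small-subunit protein, was at 5512 and 6437 CPM in NKT-like cells, a ratio of 1.17, and Rps3a1 at 3810 and 4589 CPM, a ratio of 1.204. Gnb2l1, whose product Rack1 is a signaling scaffold on the small subunit, was at 1141 and 1312 CPM, a ratio of 1.15.

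In NKT-like cells, genes that build or serve the ribosome had smaller median differences than the members. Of all genes counted in NKT-like cells 43.5% were higher, with a median log2 ratio of −0.04. Of 48 ribosome biogenesis genes 30 were higher and 18 lower in NKT-like cells, with a median log2 ratio of 0.06, and Npm1, a nucleolar chaperone, had a ratio of 1.09 (1.07 to 1.11). Of 37 translation factors 18 were higher and 19 lower in NKT-like cells, with a median of 0.00. Eef1a1, which brings aminoacyl-tRNA to the ribosome and also has a TOP mRNA, was at 6127 and 7187 CPM there, a ratio of 1.17 (1.16 to 1.18), and at 5145 and 5288 CPM in B cells, a ratio of 1.03. Translation factors had a median of 0.16 in NK cells, with 22 of 36 higher, where 47% of all genes were. Medians of the nuclear genes of the mitochondrial ribosome were below 0 in all 5 classes, from −0.12 in NK cells to −0.04 in pDC. In pDC and in NKT-like cells (−0.05) these medians lay near those over all genes, −0.04 in both. They lay below the medians over all genes in NK cells (−0.03), B cells (0.05) and other T cells (0.03). In NKT-like cells 30 of 77 of these genes were higher and 47 lower. Of 21 genes of growth control counted in NKT-like cells 11 were higher, and the median was 0.00. In other T cells 14 of 17 were higher, with a median of 0.26, where 53.7% of all genes were higher. In pDC 5 of 6 were lower, with a median of −0.22, where 53.2% of all genes were lower. The 13 genes encoded by mitochondrial DNA had a median of 0.17 in NKT-like cells, where 11 were higher, and mitochondrial UMIs were 1.76% and 2.05% of the class.

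**Figure D5:**
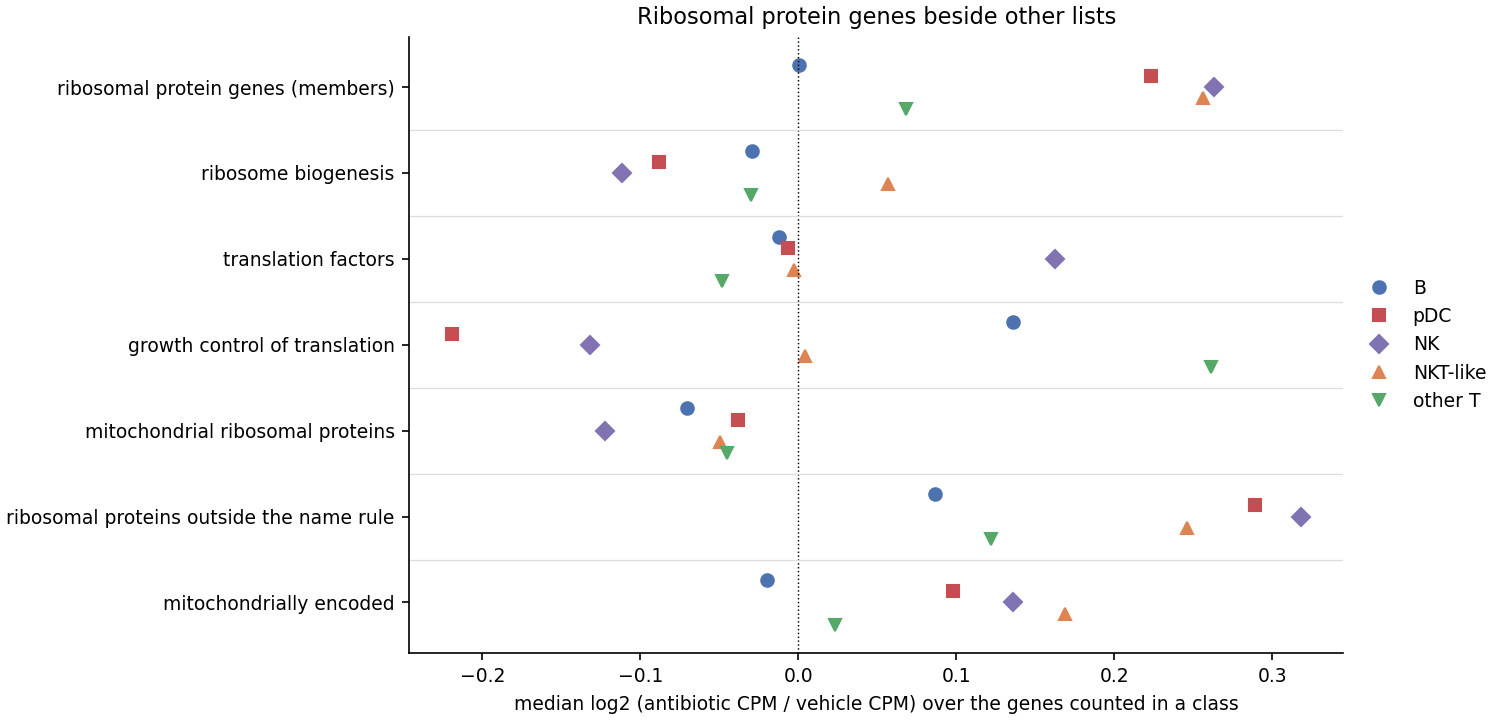
Median log2 of antibiotic CPM divided by vehicle CPM (horizontal axis) for the members and of 6 other gene lists (vertical axis) in B cells, pDC, NK cells, NKT-like cells and other T cells; each symbol is the median over the list's genes counted in a class. Members and the ribosomal proteins outside the name rule lie at 0.22 to 0.32 in pDC, NK and NKT-like cells, and the mitochondrial ribosomal proteins lie below 0 in all 5 classes.

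Markers of other cells also differed between the libraries. The summed level of 8 hepatocyte genes was 3.90 to 11.6 CPM in the antibiotic and 19.6 to 60.3 CPM in the vehicle classes, with 7 of the 8 at 0 in antibiotic NK cells. The sum of 4 neutrophil genes in pDC was 4114 CPM in vehicle and 0 in antibiotic cells, and in NK cells 598 and 7.80 CPM. The sum of 4 erythroid genes was 191 and 7.0 CPM in NKT-like cells, 1268 and 6.44 CPM in other T cells, and 1673 and 2184 CPM in B cells. For 5 macrophage and monocyte genes the sums were 129 and 52.5 CPM in NKT-like cells and 215 and 19.5 CPM in NK cells, but 88.3 and 122 CPM in other T cells. For 5 endothelial genes they were 16.8 and 2.15 CPM in NKT-like cells. The sum of the 7 B cell markers was 1925 and 771 CPM in NKT-like cells, 604 and 526 CPM in NK cells, and 1585 and 2302 CPM in other T cells. The part of these cells in the ribosomal protein shares was not tested. Barcodes of 10 to 100 UMIs, too few for a cell, had a member share of 27.3% in the vehicle and 29.0% in the antibiotic library.

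Many members have near-identical copies elsewhere in the genome. For 44 of 79 members the last 300 bases of the transcript matched another annotated gene by at least 98% over at least 90 bases, and for 17 such a copy was a row of the files. The long noncoding RNA Gm10076, a copy of Rpl41, had 25835 and 18770 UMIs in the 5 classes beside 190171 and 141059 of Rpl41. Rps27rt, a copy of Rps27, had 18342 and 17356 beside 334897 and 309381. Gm10073, a copy of Rplp1, had 21198 and 19681 beside 159998 and 123162. Rpl10 and Rps12, which had low ratios, were also among the 17. The sources used here do not say how reads that match both genes of a pair were counted, so the levels and ratios of such members are uncertain.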

How the data were processed

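Single-cell libraries of CD45+ liver leukocytes were made with the Chromium 3′ version 2 kit, 1 for vehicle and 1 for antibiotics. As deposited by the authors, the values are whole UMI counts of 28692 genes in 737280 barcodes, with no filter on cells. Per the submitters' processing notes, the reads went through Cell Ranger and bcl2fastq on mm10; versions and annotation were not stated. The libraries held 41474311 and 29811401 UMIs, 85.7% and 85.5% of them in called cells. UMIs of the cells of a class were summed per library. No count model was fitted, as cells of 1 library are not replicates. A ratio of CPM has a conditional interval for Poisson counts and a share a Clopper-Pearson interval, both exact. Only the ratio and its interval were tested on simulated data. Those data were Poisson counts, the interval's own model, and held no spread between cells or libraries. Members, classes and lists were chosen with earlier results of these data known.

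Named are the 5 highest members, the 3 highest and 3 lowest ratios per class among members with 100 or more UMIs in each library, the 6 with the widest range over classes, the stalk genes, the paralog pairs, and those next to the UMI minimum. Genes of other lists are named from the 3 with the most UMIs and the canonical non-members, and the other genes that are named were picked after their values were seen. Some genes that the rule names are not reported here. Scrublet (expected rate 6%) scored 4.44% and 2% of cells as doublets, which were kept, and 164 and 61 cells met the rules of more than 1 class. Positions and copies came from GENCODE vM21 (GRCm38) with blastn 2.17.0, and start sites from RefSeq. The scripts ran under Python 3.11.15 with scanpy 1.11.5, scipy 1.17.1, matplotlib 3.10.9, anndata 0.12.19, numpy 2.4.6 and pandas 2.3.3. Alternatives varied the UMI and mitochondrial limits, weighting, depth, doublets, class rules, scaling, low-UMI background and member minimum.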

Additional observations from a re-analysis of the deposited data

How the results depend on the processing

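The antibiotic over vehicle ratio of the member share, as log2, was 0.24 in pDC, 0.27 in NK cells, 0.25 in NKT-like cells, 0.07 in other T cells and −0.0012 in B cells. In the first 4 classes it stayed above 0 under all alternatives run. The pDC window of 2000 to 4000 UMIs held 4 and 1 cells and was not run. Results were called moved where a share left its counting interval, which is narrow, or a count changed by over 1.5 times. With 2500 or more UMIs per cell the log2 ratios were −0.0075 in B, 0.35 in NK, 0.26 in NKT-like and 0.072 in other T cells, and with cells weighted alike 0.0049 in B cells, 0.22 in pDC, 0.25 in NKT-like and 0.055 in other T cells. Thinned to 1500 UMIs per cell they were 0.0064 in B cells, 0.21 in pDC, 0.25 in NKT-like and 0.053 in other T cells. With 10% of UMIs removed in the proportions of low-UMI barcodes they were −0.011 in B cells, 0.25 in pDC, 0.29 in NK and 0.27 in NKT-like cells, and without doublets −0.0089 in B cells, 0.26 in pDC and 0.26 in NKT-like cells. With class minimums raised by 1 UMI they were −0.0051 in B, 0.23 in NK, 0.26 in NKT-like and 0.089 in other T cells, and at 2000 to 4000 UMIs 0.0096 in B, 0.33 in NK, 0.29 in NKT-like and 0.078 in other T cells. Outside mitochondrial UMIs the ratio in NKT-like cells was 0.26.

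Members lower in the antibiotic library numbered 39 of 78 in B cells, 4 of 78 in pDC, 4 of 78 in NK cells, 4 of 79 in NKT-like cells and 25 of 78 in other T cells. Scaled to a median ratio of 1 they were 59 in B and 2 in NK cells. Over UMIs outside members and mitochondrial genes they were 2 in pDC, 1 in NK, 2 in NKT-like and 11 in other T cells, and the median log2 ratio of members in NKT-like cells went from 0.26 to 0.40, with 68 members higher by 1.2-fold or more instead of 34. Thinning gave 10 in pDC and 2 in NKT-like cells, 2500 UMIs 2 in NK cells, raised class minimums 8 in NK and 16 in other T cells, and 2000 to 4000 UMIs 2 in NK and 2 in NKT-like cells. Members 1.2-fold or more lower within the group (1 in B, 0 in other T and 4 in NKT-like cells) became 0 in B cells at 2500 UMIs, 2 in B and 2 in other T cells with cells weighted alike, 2 in B, 1 in other T and 2 in NKT-like cells when thinned, 1 in other T cells with raised minimums, and 2 in NKT-like and 3 in other T cells at 2000 to 4000 UMIs. Members higher within the group in pDC (1) became 2 when thinned and 3 without doublets. The cause of these changes was not tested. Leaving out barcodes shared by the libraries, added after the data were seen, moved none of the 20 values. No paired analysis was possible because each condition has 1 library.

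The limits are those of 1 library per condition. Intervals cover counting error only, and pDC rest on 34 and NK cells on 99 antibiotic cells. Counts of UMIs per cell depend on capture and sequencing depth.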

Other observations

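Over all called cells, also those of no class, cells with 2 or more UMIs of the proliferation genes Mki67 and Top2a together had lower ribosomal protein shares than cells with none. The shares were 25.0% (109 cells) in the vehicle and 29.8% (27 cells) in the antibiotic library, against 31.8% and 37.1%. These cells were far deeper, with medians of 10449 and 11801 UMIs against 3484 and 3322. They still held more ribosomal protein UMIs per cell, 2826 and 3777 against 1218 and 1322. The cells compared were not matched by class. Among NKT-like cells, those with 2 or more such UMIs had shares of 26.3% (68 vehicle cells) and 30.8% (15 antibiotic cells). The whole NKT-like class had 31.8% and 37.95%.

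Rpl22l1, a paralog of Rpl22, was at 955 and 1436 CPM in vehicle and antibiotic NKT-like cells, a ratio of 1.505 (1.475 to 1.535), and at 1000.3 and 1072 CPM in B cells, a ratio of 1.07 (1.03 to 1.11). Myc, a transcription factor of growth, was at 28.2 and 42.1 CPM in NKT-like cells, a ratio of 1.49 (1.33 to 1.68), with 472 and 703 UMIs. Both were picked after their values were seen.

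Rpl10l, a paralog of Rpl10 known from testis that fell below the UMI minimum, was spread over barcodes like Rpl39l. Of its UMIs 37.7% in the vehicle and 35.3% in the antibiotic library lay in barcodes with fewer than 10 UMIs and 54.2% and 57.1% in barcodes with 10 to 100, and only 2.36% and 3.53% in barcodes with 1500 or more. For Rpl10 the last share was 88.4% and 87.8%. These values have no explanation here.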
